A study of Mus musculus with 30 samples.

Results

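10 genes that make and lengthen unsaturated fatty acids were followed in gonadal white adipose tissue (gWAT). They were the stearoyl-CoA desaturases *Scd1* and *Scd2*, the fatty acid desaturases *Fads1*, *Fads2* and *Fads3*, and the elongases *Elovl1*, *Elovl3*, *Elovl5*, *Elovl6* and *Elovl7*. The members were picked by gene symbol among the 55401 genes of the count table, and all 10 were found and passed the filter on low counts, as did 17482 genes in all. RNA was sequenced from the gWAT of 30 female New Zealand obese mice (strain NZO/HIBomDife), of which 15 were diabetes-prone (DP) and 15 were diabetes-resistant (DR), the latter serving as controls. All of the mice carried the same inbred background and ate a high-fat diet. They were assigned to DP or DR by a risk score after 5 weeks of that diet, and the tissue was taken at 10 weeks of age, before hyperglycaemia, so that the group of a mouse is a predicted and not an observed outcome. Each animal gave 1 library. The question put to the data was how expression of these enzymes differs between the tissue of mice classed as prone and as resistant.

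Desaturases of the endoplasmic reticulum insert a double bond into a fatty acyl chain that is bound to coenzyme A, with electrons that reach them from NADH through cytochrome b5. The SCD enzymes act on saturated chains and turn palmitate and stearate into palmitoleate and oleate, the main monounsaturated fatty acids stored in adipose triglyceride. FADS2 and FADS1 act in turn on the essential fatty acids of the diet on the way to arachidonic and eicosapentaenoic acid, while FADS3 places a double bond in the sphingoid backbone of ceramides. The ELOVL enzymes catalyse the condensation step that starts each round of chain lengthening and differ in the chains they accept. In liver and fat, many of these genes are known targets of the sterol regulatory element binding proteins (SREBP), of carbohydrate response element binding protein (encoded by *Mlxipl*) and of the liver X receptors.

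6 of the 10 genes lie on mouse chromosome 19 (GRCm38, GENCODE M21). *Fads3* (10041569 to 10060110, plus strand), *Fads2* (10062765 to 10101746, minus strand) and *Fads1* (10182888 to 10196877, plus strand) are neighbours, with 2655 bases between the ends of *Fads3* and *Fads2* and 81142 bases between the starts of *Fads2* and *Fads1*. *Scd2* (44293674 to 44306864, plus strand) and *Scd1* (44394455 to 44407879, minus strand) lie 87591 bases apart, with *Scd4* between them, and *Elovl3* spans 46131897 to 46135694 on the plus strand. *Elovl6* is on chromosome 3, *Elovl1* on chromosome 4, *Elovl5* on chromosome 9 and *Elovl7* on chromosome 13. Exons of *Elovl1* share 53 bases with *Cdc20*, those of *Elovl3* share 10 bases with *Pitx3* and those of *Elovl6* share 34 bases with *Gm35986*, each on the opposite strand. Whether counting used strand is not given in the sources used here, so reads in these stretches cannot be assigned to one gene. Exons of *Scd2* share 61 bases with *Mir5114* on the same strand, which strand could not tell apart.

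The promoter sequences of 4 members are shown because these genes moved in opposite directions between DP and DR, *Elovl1* and *Elovl7* being higher and *Elovl5* and *Fads3* lower in DP. Each runs 5′ to 3′ over the 250 bases before the annotated start (RefSeq, GRCm38.p6), and capitals mark 3 kinds of motif found on either strand. The motif of a GC box was spelled GGGCGG. The second kind was a CCAAT box. An E-box, which SREBP1 can also bind, was spelled CACGTG.
Elovl1: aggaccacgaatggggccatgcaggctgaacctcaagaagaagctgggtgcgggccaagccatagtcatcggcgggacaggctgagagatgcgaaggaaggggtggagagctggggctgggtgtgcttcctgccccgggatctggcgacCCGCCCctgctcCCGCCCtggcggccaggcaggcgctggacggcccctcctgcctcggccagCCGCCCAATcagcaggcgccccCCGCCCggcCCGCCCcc
Elovl7: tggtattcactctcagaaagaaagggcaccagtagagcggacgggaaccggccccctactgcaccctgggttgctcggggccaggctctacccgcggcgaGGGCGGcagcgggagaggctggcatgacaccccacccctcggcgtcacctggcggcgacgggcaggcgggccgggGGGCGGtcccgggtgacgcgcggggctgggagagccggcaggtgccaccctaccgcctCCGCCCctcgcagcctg
Elovl5: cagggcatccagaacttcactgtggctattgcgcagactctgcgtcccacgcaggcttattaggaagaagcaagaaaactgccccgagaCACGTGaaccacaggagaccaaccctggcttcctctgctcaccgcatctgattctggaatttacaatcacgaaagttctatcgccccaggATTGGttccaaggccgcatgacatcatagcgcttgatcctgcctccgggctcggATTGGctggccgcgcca
Fads3: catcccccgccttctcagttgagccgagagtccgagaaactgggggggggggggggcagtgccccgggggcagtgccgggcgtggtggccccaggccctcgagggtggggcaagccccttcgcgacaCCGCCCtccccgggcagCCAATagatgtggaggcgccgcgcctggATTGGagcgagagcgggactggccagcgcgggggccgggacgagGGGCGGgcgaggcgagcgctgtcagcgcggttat
The *Elovl1* window, at chr4:118427843-118428092 (plus strand), held 5 GC boxes and 1 CCAAT box that overlapped the GC box beside it. The *Elovl7* window, at chr13:108214154-108214403 (plus strand), held 3 GC boxes. The *Elovl5* window, at chr9:77917115-77917364 (plus strand), held 2 CCAAT boxes and 1 E-box, and the *Fads3* window, at chr19:10041298-10041547 (plus strand), held 2 CCAAT boxes and 2 GC boxes. Among 32851 promoter windows of the same length, 32.7% held a GC box, 33.8% a CCAAT box and 6.02% an E-box. RefSeq windows matched 6 members (7 windows, 2 of them for *Elovl1*), namely *Elovl1*, *Elovl5*, *Elovl6*, *Elovl7*, *Fads2* and *Fads3*. A core sterol regulatory element (TCACCCCAC) was found in 0.496% of all windows and in the windows of 0 of these 6 members. A match or its absence describes only the letters of a window.

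Total counts ran from 28146906 to 29974243 per library. Levels are given as CPM, that is, counts set to a common library total after scaling by TMM. Tests of single genes were made with the quasi-likelihood method of edgeR, and each adjusted p is that of Benjamini and Hochberg over the 17482 genes tested. Of all genes tested, 28.2% rose and 27.3% fell in DP, so that a call in one direction was common. A pair of DR libraries stood apart in values that touch these genes. DR replicate 7 held liver transcripts, with a summed level of 7171 CPM over 12 genes (*Alb*, *Apoa1*, *Fgb* and others, chosen after their values were seen) against 11.3 to 60.9 CPM in the other 29 libraries. DR replicate 6 was the lowest of all libraries in *Elovl6* and *Scd2*. Results that rest on either library are given with and without it. Macrophage markers rose in DP (15 of 20 higher, with *Cd163* and *Timd4* lower) and adipocyte markers fell (17 of 18 lower). The summed macrophage level ran from 5416 to 7793 CPM in DP and from 2117 to 4828 CPM in DR, and the summed adipocyte level from 34676 to 44472 CPM in DP and from 45507 to 53688 CPM in DR, so that neither sum overlapped between the groups. In bulk tissue, fewer cells of a type and less RNA per cell cannot be told apart, and the part of this shift in the differences between DP and DR cannot be told apart from that of the group.

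Expression of the 10 genes spanned more than 3 orders of magnitude when set per kilobase of exon. *Scd1* led with 2779 ± 275 CPM per kilobase in DP and 3020 ± 374 in DR (mean ± SD, n = 15 each, as for all means here), and it alone took 1.37% of all counts in DP and 1.46% in DR. *Fads3* followed at 172 ± 11.3 in DP and 194 ± 17.3 CPM per kilobase in DR, which left *Scd1* 16.1 and 15.6 times above it. Below them the order of mean levels in both groups was *Scd2*, *Elovl5*, *Elovl1*, *Fads1*, *Fads2*, *Elovl6*, *Elovl7* and *Elovl3*. Each gene stood above the next in this order in at least 14 of 15 libraries of each group, except that *Elovl7* exceeded *Elovl3* in 7 of 15 DP libraries against 14 of 15 DR libraries. *Elovl3* was close to the limit of detection, with 12 to 41 counts per library in DP and 0 to 35 in DR.

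Of the 10 genes, 5 rose in DP (*Scd2*, *Fads1*, *Elovl1*, *Elovl3* and *Elovl7*), 3 fell (*Fads2*, *Fads3* and *Elovl5*) and 2 did not pass the test (*Scd1* and *Elovl6*). *Elovl3* had passed the filter on low counts by its DP libraries, the group in which it was higher. Without DR replicates 6 and 7, *Scd1* also passed the threshold as lower, which made 5 higher and 4 lower. These libraries were left out after the data were seen and held the lowest DR values of *Scd1*, so this count is no independent result. Over all genes tested 26.3% rose and 27.6% fell in that fit, against 28.2% and 27.3% with every library. The median log2 fold change was 0.15 over the 10 genes and -0.01 over all genes tested. The plot of levels by library shows every animal.

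**Figure D1:**
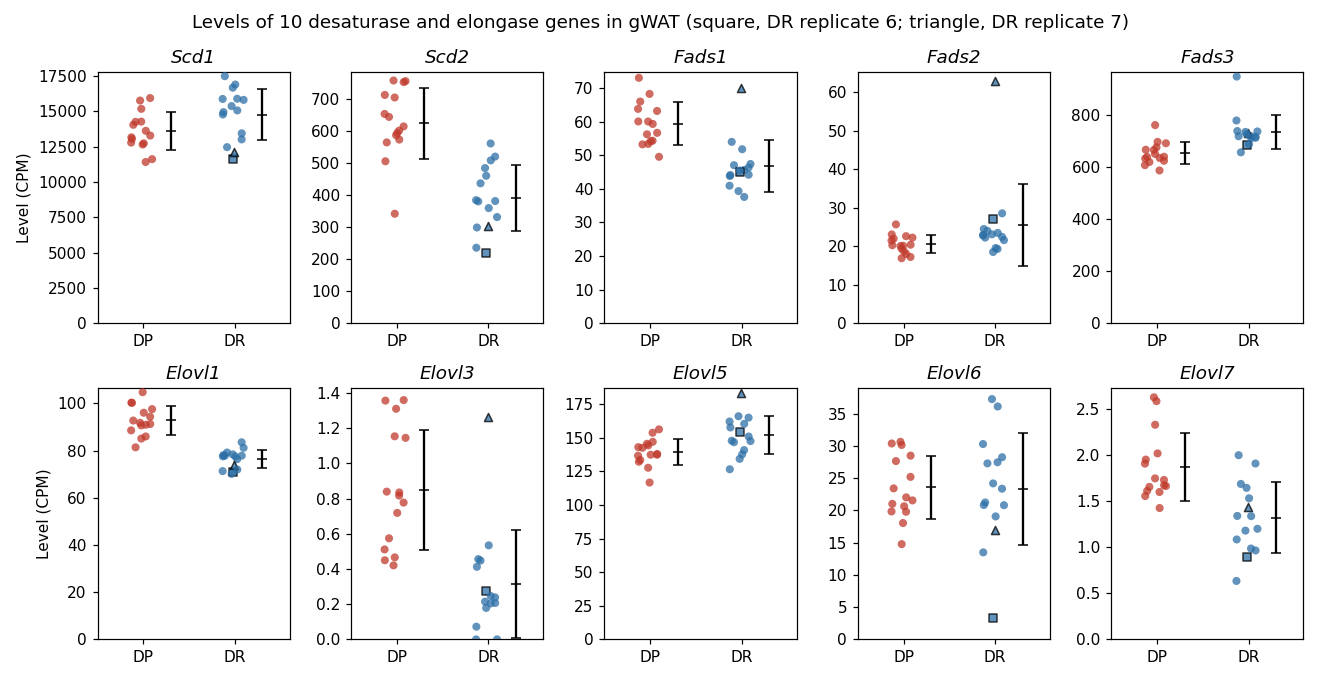
Levels of the 10 genes in CPM (vertical axes, linear and starting at 0) in 15 DP (red) and 15 DR (blue) libraries, 1 point per mouse, with black bars for the mean and SD of the group. DR replicate 6 (square) is the lowest point for *Elovl6* at 3.27 CPM, and DR replicate 7 (triangle) the highest for *Fads2* at 62.9 CPM.

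*Scd1*, the main isoform of adipose tissue, did not pass the test with all libraries. It ran from 11421 over a median of 13295 to 15952 CPM in DP and from 11641 over 15074 to 17503 CPM in DR. The ranges overlapped almost fully, although 12 of 15 DP libraries were below the DR median. The log2 fold change was -0.12 ± 0.06 (SE), with an adjusted p of 0.0825. The lowest DR values came from the libraries that stood apart (11641 CPM in replicate 6 and 12114 CPM in replicate 7). Without both of them the log2 fold change was -0.17 ± 0.05 with an adjusted p of 0.00806. Leaving out either one also brought it past the threshold (adjusted p = 0.0208 without replicate 6 and 0.0284 without replicate 7). Both libraries were set apart after the data were seen, replicate 6 by its low *Elovl6* and *Scd2*. Leaving out the lowest DR values moves *Scd1* toward a fall in DP, so these fits cannot decide whether it fell.

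*Scd2*, the isoform abundant in brain, rose in DP. It ran from 341 over a median of 613 to 756 CPM in DP and from 218 over 381 to 560 CPM in DR. 13 of 15 DP libraries lay above every DR library. DP replicates 6 (341 CPM) and 10 (505 CPM) were the exceptions, and DR replicate 6 was the lowest of all. The log2 fold change was 0.67 ± 0.12 (1.597-fold, adjusted p = 1.55e-05), and it was 0.59 ± 0.11 without DR replicates 6 and 7. With the macrophage markers as a covariate the difference was 0.67 ± 0.24 (edgeR p = 0.00890, adjusted p = 0.280). In that fit 1 of all 17482 genes passed the adjusted threshold. Group and marker levels cannot be told apart in it, which holds for every gene given with this covariate. Set per kilobase, *Scd2* made up 3.97% of the summed level of the 4 *Scd* genes in DP and 2.32% in DR. *Scd3*, which is known from sebaceous glands, was at 14.7 ± 1.97 CPM in DP and 15.9 ± 2.55 CPM in DR, and *Scd4*, which is known from heart, at 1.14 ± 0.20 and 1.21 ± 0.40 CPM, neither of which passed the test (adjusted p = 0.208 and 0.755).

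The *Scd* genes share sequence, which limits how far their counts can be kept apart. Of the distinct stretches of 50 bases in *Scd2* transcripts, 2.66% were also present in *Scd1* transcripts, and of those of 100 bases 0.879%. Since *Scd1* stood 24.4 times above *Scd2* per kilobase in DP and 42.3 times in DR, reads from the shared stretches that were given to the wrong gene would weigh more on *Scd2*. How the counting treated such reads is not given in the sources used here.

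In the polyunsaturated pathway the later desaturase rose and the earlier one fell in the fit with all libraries, the fall being sensitive to the setting. *Fads1*, which makes arachidonic acid from its immediate precursor, ran from 49.6 over a median of 59.4 to 73.1 CPM in DP and from 37.6 over 45.5 to 70.2 CPM in DR. All 15 DP libraries were above the DR median, and apart from DR replicate 7 (70.2 CPM) no DR library exceeded 54.0 CPM, a level that 12 DP libraries passed. DP exceeded DR by 0.34 ± 0.07 on the log2 scale (1.27-fold, adjusted p = 5.58e-05), and 0.38 ± 0.05 without DR replicate 7. With the macrophage markers as a covariate the direction was lost, at -0.06 ± 0.11 (adjusted p = 0.906).

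*Fads2*, which catalyses the first and rate-limiting desaturation of linoleic and alpha-linolenic acid, ran from 16.9 over a median of 20.2 to 25.7 CPM in DP and from 18.5 over 22.9 to 62.9 CPM in DR. 13 of 15 DP libraries were below the DR median, but the ranges overlapped. DR replicate 7 alone, at 62.9 CPM, lay far above the next DR library at 28.5 CPM. The log2 fold change was -0.31 ± 0.12 (adjusted p = 0.0304) and came down to -0.17 ± 0.06 without that library (adjusted p = 0.0239). Without DR replicates 6 and 7 together it was -0.15 ± 0.06 (adjusted p = 0.0474). With 7 surrogate variables it was -0.11 ± 0.05 and did not pass the test (adjusted p = 0.0891). It also missed the threshold without a filter on low counts (adjusted p = 0.0597) and in the 15 libraries of lower number (0.135). The coefficient of variation of *Fads2* in DR was 41.9% with these libraries and 11.5% without them, against 11.6% in DP.

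*Fads3*, the sphingoid base desaturase, was the most evenly expressed of the 3 in DP. It ran from 588 over a median of 641 to 763 CPM in DP and from 658 over 720 to 949 CPM in DR. 9 of 15 DP libraries were below every DR library, and 14 were below the DR median. The difference on the log2 scale was -0.17 ± 0.04 (1.12-fold lower, adjusted p = 0.000554).

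Among the elongases of saturated and monounsaturated chains, the clearest difference was in *Elovl1*, which makes the very long chains of sphingolipids. It ran from 81.4 over a median of 91.8 to 105 CPM in DP and from 70.2 over 77.6 to 83.6 CPM in DR. 14 of 15 DP libraries were above every DR library, and only DP replicate 2 fell within the DR range. This amounted to a log2 fold change of 0.28 ± 0.03 (1.21-fold, adjusted p = 1.48e-08), and to 0.15 ± 0.06 with the macrophage covariate (adjusted p = 0.355). Over all genes tested, 2.89% had ranges that did not overlap at all between the groups, which held for 0 of the 10 members. The spread within a group was small for *Elovl1*, with a coefficient of variation of 6.79% in DP and 5.11% in DR.

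*Elovl6*, which lengthens palmitate to stearate and so provides the substrate of the SCD enzymes, ran from 14.8 over a median of 22.01 to 30.6 CPM in DP and from 3.27 over 23.4 to 37.2 CPM in DR. The groups overlapped throughout. The log2 fold change was 0.02 ± 0.18 with an adjusted p of 0.953, and its direction turned to -0.12 ± 0.12 without DR replicates 6 and 7 (adjusted p = 0.446). DR replicate 6 held *Elovl6* at 4.06-fold below the lowest of the other 29 libraries. Of the 17482 genes tested, *Elovl6* ranked 7th by this distance of the library below all others. In the DP group the lowest library for *Elovl6*, replicate 6, was also the lowest for *Scd2*.

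*Elovl3*, an elongase of very long saturated and monounsaturated chains that is known from brown fat in the cold and from sebaceous glands, ran from 0.42 over a median of 0.82 to 1.36 CPM in DP and from 0 over 0.24 to 1.26 CPM in DR. *Elovl3* passed the filter (minimum count 10) by its DP libraries, each with at least 12 counts, while DR libraries went down to 0 counts. All 15 DP libraries were above the DR median, and 11 were above every DR library other than replicate 7, which was the highest of DR. On the log2 scale DP was higher by 1.41 ± 0.33 (2.67-fold, adjusted p = 6.00e-04), and 1.74 ± 0.30 without DR replicate 7. With the macrophage covariate it was 0.24 ± 0.67 (adjusted p = 0.938). *Elovl7*, which acts on long saturated chains, ran from 1.43 over a median of 1.73 to 2.63 CPM in DP and from 0.63 over 1.34 to 2.00 CPM in DR. All 15 DP libraries were above the DR median and 4 were above every DR library, with a log2 fold change of 0.50 ± 0.13 (1.41-fold, adjusted p = 0.00160) that came to -0.02 ± 0.24 with the macrophage covariate (adjusted p = 0.990). Both genes rest on few counts, with 41 to 77 per library for *Elovl7* in DP and 18 to 57 in DR.

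Markers of the tissues in which *Elovl3* is best known were counted beside it. Of 10 brown and beige fat genes tested, *Elovl3* was the only one higher in DP, and 6 were lower, among them *Cox8b*, *Ppargc1a* and *Prdm16*. Of 5 sebaceous gland genes tested, *Elovl4* was higher and *Mgst1* lower, while *Awat1* and *Dgat2l6* had too few counts to be tested. Epithelial markers were scarce, with 2 of 6 tested, of which *Krt8* was lower. The part of any of these tissues in the levels of *Elovl3* was not tested.

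*Elovl5*, which lengthens the polyunsaturated products of FADS2, ran from 117 over a median of 138 to 156 CPM in DP and from 127 over 151 to 184 CPM in DR. 13 of 15 DP libraries were below the DR median, though the ranges overlapped widely. Between the groups the log2 fold change was -0.13 ± 0.04 (1.09-fold lower, adjusted p = 0.0153). The highest DR value was again that of replicate 7, and without it the difference was -0.12 ± 0.04. The plot of fold changes under 4 fits sets these values side by side.

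**Figure D2:**
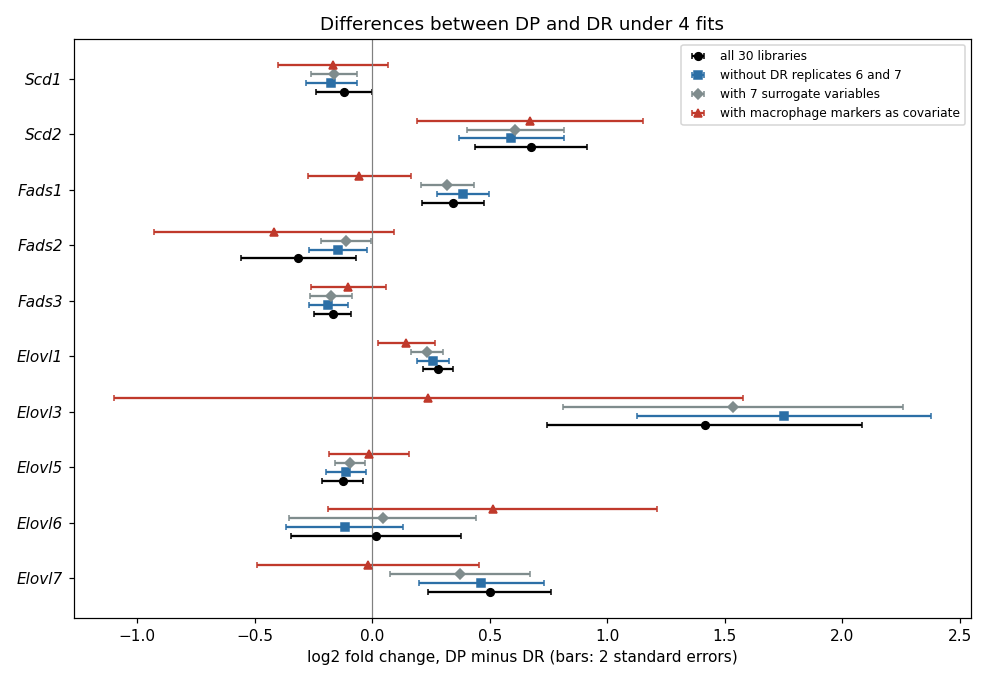
Log2 fold change between DP and DR (horizontal axis, DP minus DR, bars of 2 standard errors) for each of the 10 genes with all 30 libraries (circles), without DR replicates 6 and 7 (squares), with 7 surrogate variables (diamonds) and with macrophage markers as a covariate (triangles). *Fads2* moves from -0.31 to -0.15 without the pair of DR libraries, and *Scd2* stays at 0.67 with the macrophage covariate while its error widens to 0.24.

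Ratios of 2 members within a library do not depend on how libraries are scaled, and 4 of them were compared between the groups by a two-sided permutation test, adjusted over the 4. The log2 ratio of *Scd2* to *Scd1* was -4.47 ± 0.35 in DP and -5.28 ± 0.39 in DR (n = 15 each). It was 0.82 ± 0.14 (SE) higher in DP, a 1.76-fold shift (permutation p = 4.00e-05, adjusted 8.00e-05), with 14 of 15 DP libraries above the DR median. The log2 ratio of *Fads1* to *Fads2* was 1.54 ± 0.25 in DP and 0.93 ± 0.32 in DR, higher by 0.60 ± 0.11 or 1.52-fold (permutation p = 2.00e-05, the smallest these permutations can give, adjusted 8.00e-05). All 15 DP libraries were above the DR median in this ratio and 11 were above every DR library, and without DR replicate 7 the difference was 0.55. The log2 ratio of *Elovl6* to *Elovl5* was -2.59 ± 0.32 in DP and -2.86 ± 0.83 in DR, a difference of 0.26 ± 0.23 (permutation p = 0.293, adjusted 0.293) that came to 0.07 without DR replicate 6. The log2 ratio of *Scd1* to *Elovl6* was 9.20 ± 0.30 in DP and 9.45 ± 0.77 in DR, a difference of -0.26 ± 0.21 (permutation p = 0.253, adjusted 0.293), and it was -0.09 without DR replicate 6. For these last 2 ratios an interval of 2 standard errors ran from -0.20 to 0.73 and from -0.68 to 0.17, so that shifts within these intervals were not excluded.

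**Figure D3:**
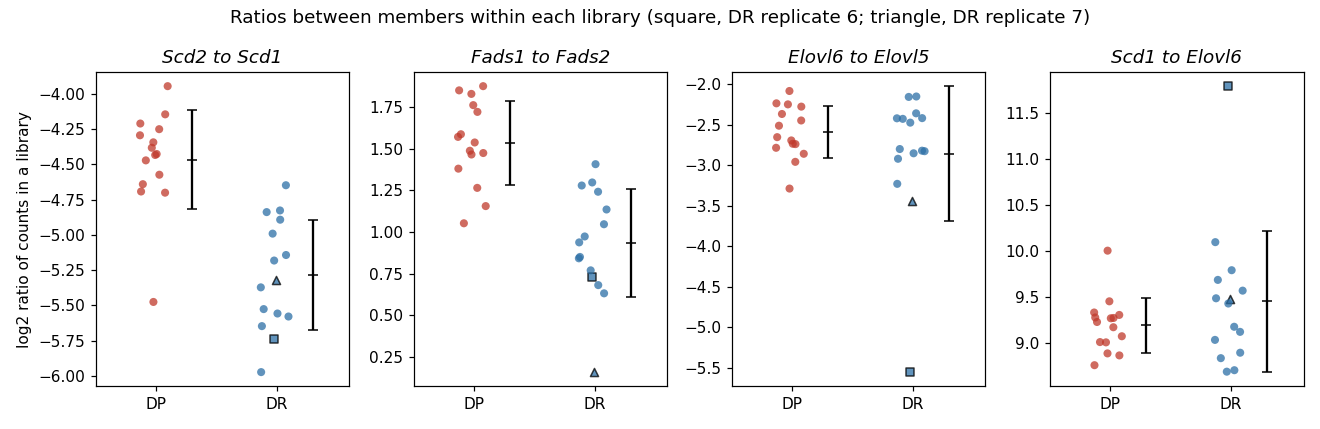
Log2 ratio of the counts of 2 genes within each library (vertical axes, which do not start at 0) for 15 DP (red) and 15 DR (blue) libraries, with the mean and SD in black. *Scd2* to *Scd1* and *Fads1* to *Fads2* sit higher in DP, while DR replicate 6 (square) lies apart in both ratios with *Elovl6*.

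Whether the genes varied together among mice of one group was examined for 6 pairs in DP and in DR separately, which gave 12 relations over 15 libraries each. None passed the threshold after adjustment over the 12. The smallest p by rho was that of *Fads1* and *Srebf1*, which encodes SREBP1, in DR. This relation was negative in both groups, with r = -0.54 and rho = -0.57 in DP (permutation p = 0.0366 and 0.0294) and r = -0.52 and rho = -0.68 in DR (permutation p = 0.0498 and 0.00691). The adjusted values were 0.205 and 0.177 in DP and 0.205 and 0.0829 in DR. Without the 2 libraries farthest from the *Fads1* median, r was -0.54 in DP and -0.67 in DR. *Fads1* and *Fads2* had r = 0.64 in DR (permutation p = 0.0569, adjusted 0.205) but rho = -0.20, and r was -0.33 without DR replicates 6 and 7, so that the positive value rested on these libraries. In DP the same pair had r = -0.22 and rho = -0.17. *Scd1* and *Elovl6* had r = 0.31 in DP and 0.47 in DR, and the latter was -0.15 without DR replicates 6 and 7. *Scd1* and *Scd2* had r = -0.20 in DP and 0.32 in DR, the latter being -0.11 without this pair of libraries. *Scd1* and *Srebf1* had r = 0.41 in DP and 0.08 in DR. The mean level of the macrophage markers and *Scd2* had r = -0.02 in DP and 0.06 in DR, with permutation p of 0.941 and 0.834.

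The genes whose pattern was most like that of a member were sought among 11186 genes with a mean of at least 5 CPM, by Pearson's r over all 30 libraries after the group means were taken away. These values are a description over libraries that share their preparation, with no test. *Scd2* was most like *Lss*, which makes lanosterol in cholesterol synthesis (r = 0.91), *Acss2*, which makes acetyl-CoA from acetate (0.91), and *Cyb5b*, a cytochrome b5 of the mitochondrial outer membrane (0.90). Without DR replicates 6 and 7, over 28 libraries, these values were 0.89, 0.90 and 0.89. *Elovl6* was most like *Me1*, the malic enzyme that supplies NADPH for fatty acid synthesis (0.82, and 0.83 without these libraries), *Odf3l1* (0.77 and 0.68) and *Scd2* itself (0.75 and 0.76). *Scd1* was most like *Eif2s3x* (0.75), *Rb1* (0.74) and *Qk* (0.73), none of them an enzyme of lipid synthesis. *Fads2* was most like the liver transcripts *Alb* (0.91), *Ahsg* (0.90) and *Serpina1d* (0.90), which came down to 0.61, 0.58 and 0.54 without DR replicates 6 and 7. These genes were picked over all 30 libraries, DR replicate 7 among them, and the search was not repeated without it.

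DR replicate 7 was also the one library with *Elovl2*, the elongase of liver that leads to docosahexaenoic acid. *Elovl2* had 940 counts there (33.9 CPM) and at most 12 counts (0.43 CPM) in each of the other 29 libraries, and it did not pass the filter on low counts. The same library was the highest of DR for *Fads1*, *Fads2*, *Elovl3* and *Elovl5*, but not for *Elovl1*, *Elovl6* or *Elovl7*. The part of the liver transcripts in these levels was not tested.

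**Figure D4:**
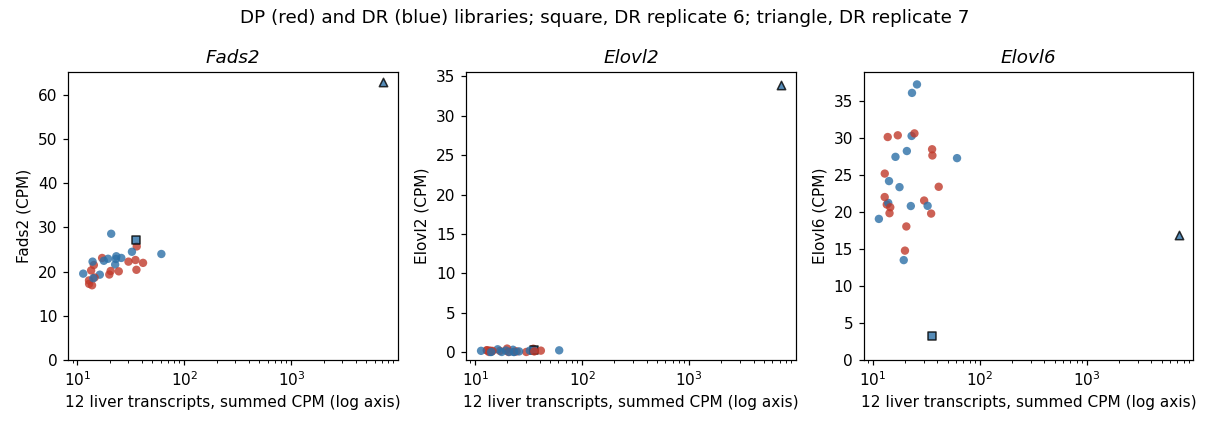
Levels of *Fads2*, *Elovl2* and *Elovl6* in CPM (vertical axes) against the summed CPM of 12 liver transcripts (horizontal log axes) in DP (red) and DR (blue) libraries. DR replicate 7 (triangle) stands alone at 7171 CPM of liver transcripts with 62.9 CPM of *Fads2* and 33.9 CPM of *Elovl2*, and DR replicate 6 (square) is the lowest for *Elovl6*.

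The other genes of the pathway moved in both directions as well. The counts in this and the next paragraphs stand beside 28.2% of all genes tested that rose and 27.3% that fell in DP. Among 7 other desaturases, 3 rose and 1 fell (median log2 fold change 0.11). *Msmo1*, a sterol methyl oxidase of cholesterol synthesis, rose from 34.5 ± 4.16 CPM in DR to 46.2 ± 4.51 CPM in DP (log2 fold change 0.42 ± 0.06, adjusted p = 2.22e-07), and *Sc5d*, a later sterol desaturase, fell from 174 ± 15.8 to 144 ± 11.3 CPM (-0.27 ± 0.04, adjusted p = 5.18e-06). Of the ceramide desaturases, *Degs2* rose from 2.01 ± 0.76 to 4.36 ± 1.17 CPM (1.11 ± 0.16, adjusted p = 9.43e-07) and *Degs1* from 318 ± 18.9 to 342 ± 19.01 CPM (0.11 ± 0.03, adjusted p = 0.00495). Exons of *Degs2* share 278 bases with *Evl* on the opposite strand. *Elovl4*, the elongase of ultra long chains in retina and skin, rose from 0.19 ± 0.16 to 0.55 ± 0.24 CPM (1.53 ± 0.36, adjusted p = 5.70e-04) on 7 to 31 counts per DP library and 0 to 14 per DR library. Like *Elovl3*, it passed the filter on low counts mainly by its DP libraries.

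Of 6 partners of the elongases that complete each round, 3 rose and 1 fell (median 0.04). The dehydratases *Hacd4* (log2 fold change 0.44 ± 0.06) and *Hacd3* (0.17 ± 0.04) and the ketoreductase *Hsd17b12* (0.11 ± 0.04) rose, and the dehydratase *Hacd2* fell (-0.34 ± 0.05). *Hacd2* was at 169 ± 16.4 CPM in DP and 213 ± 23.9 CPM in DR, with all 15 DP libraries below the DR median. In the electron chain of the desaturases 2 of 6 rose and 2 fell (median -0.04). *Cyb5a*, the microsomal cytochrome b5 that hands electrons to the desaturases, fell from 214 ± 18.8 CPM in DR to 176 ± 9.44 CPM in DP (-0.28 ± 0.04, adjusted p = 3.49e-07), with all 15 DP libraries below the DR median. The cytochrome b5 reductases *Cyb5r4* (0.29 ± 0.04) and *Cyb5r1* (0.16 ± 0.03) rose, and *Cyb5r2* fell (-0.58 ± 0.14).

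Of 16 regulators of these genes, 3 rose and 10 fell (median -0.16), against 28.2% and 27.3% of all genes tested. *Srebf1* fell from 277 ± 25.5 CPM in DR to 235 ± 22.7 CPM in DP (-0.24 ± 0.05, adjusted p = 0.000121), *Mlxipl* from 89.7 ± 11.2 to 70.8 ± 9.39 CPM (-0.34 ± 0.06, adjusted p = 4.34e-05) and *Nr1h3*, which encodes a liver X receptor, from 102 ± 7.20 to 90.4 ± 6.62 CPM (-0.17 ± 0.04, adjusted p = 0.000292). For *Srebf1* and *Mlxipl* all 15 DP libraries were below the DR median. *Rxra*, the partner of the liver X receptors, fell by 0.40 ± 0.04 and *Ppara*, a receptor for fatty acids, by 0.96 ± 0.14 on the log2 scale, and *Mbtps1*, a protease that releases SREBPs, by 0.18 ± 0.02. The 3 that rose were *Insig1*, which retains SREBPs in the endoplasmic reticulum and is itself an SREBP target (130 ± 25.1 to 183 ± 16.9 CPM, 0.49 ± 0.08, adjusted p = 6.20e-06), *Srebf2*, which encodes the SREBP of cholesterol synthesis (0.25 ± 0.04), and *Mbtps2*, the other SREBP protease (0.18 ± 0.05).

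Genes of fatty acid synthesis were counted in the same way. Of 11 genes, 1 rose and 3 fell (median -0.13), against 28.2% and 27.3% of all genes tested. *Acss2* rose from 123 ± 27.01 CPM in DR to 179 ± 28.5 CPM in DP (0.53 ± 0.10, adjusted p = 2.85e-05). *Fasn*, the fatty acid synthase that makes palmitate, was at 1571 ± 582 CPM in DR and 1433 ± 302 CPM in DP and did not pass the test (-0.13 ± 0.15, adjusted p = 0.472). *Oxsm* (-0.28 ± 0.04) and *Mcat* (-0.19 ± 0.04) of mitochondrial fatty acid synthesis fell, as did the lipogenic regulator *Thrsp* (-0.69 ± 0.24).

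Genes that take up or activate fatty acids or acetate, remodel phospholipid chains or shorten chains in peroxisomes were counted in 3 groups. Of 7 acyl-CoA synthetases and transporters tested, 4 rose and 1 fell (median 0.18). *Acsl4*, which prefers arachidonic acid, rose by 0.28 ± 0.05, *Acsl3* by 0.26 ± 0.05, *Acsl5* by 0.18 ± 0.04 and the mitochondrial *Acss1* by 0.39 ± 0.06 on the log2 scale, while *Acsl1*, the main adipose form, fell from 2361 ± 309 CPM in DR to 1954 ± 206 CPM in DP (-0.27 ± 0.06, adjusted p = 0.000435). Of 11 genes of phospholipid acyl chain remodelling, 6 rose and 3 fell (median 0.18), with *Pla2g15*, the lysosomal phospholipase, at 0.56 ± 0.07 and *Lpcat2* at 0.62 ± 0.11 among those that rose, and *Agpat3* (-0.19 ± 0.03), *Pla2g6* (-0.20 ± 0.04) and *Mboat2* (-0.84 ± 0.15) the 3 that fell. Of 10 genes of peroxisomal chain shortening, 8 fell (median -0.16). *Abcd2*, which brings very long chains into peroxisomes, fell from 678 ± 59.1 CPM in DR to 442 ± 41.2 CPM in DP (-0.62 ± 0.05, adjusted p = 6.07e-11). *Hsd17b4*, an enzyme of peroxisomal beta-oxidation, fell by 0.31 ± 0.03 and the thiolase *Scp2* by 0.37 ± 0.04 on the log2 scale.

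**Figure D5:**
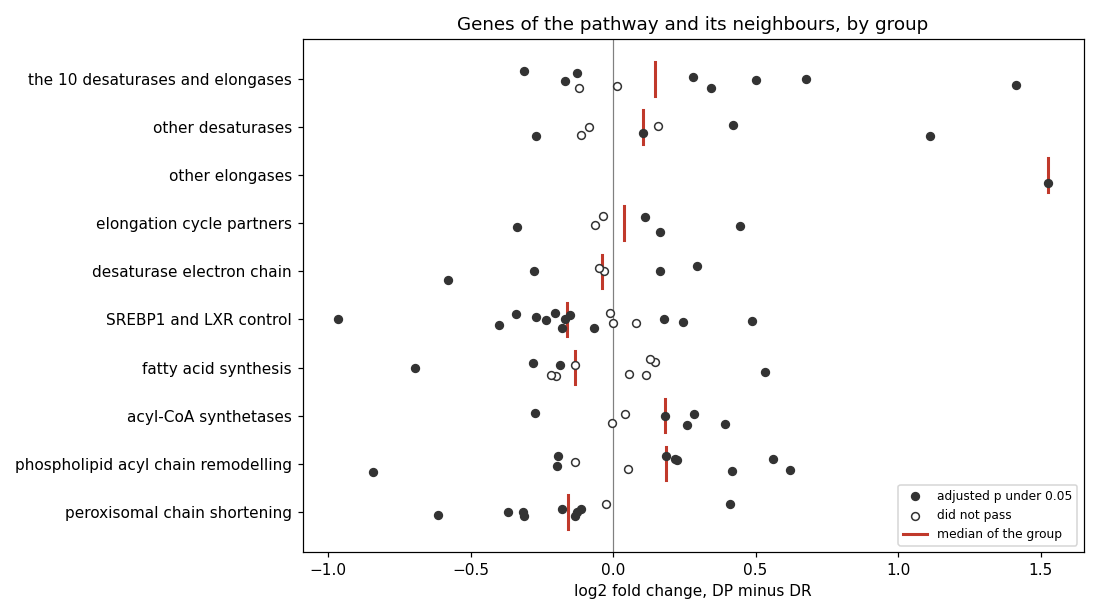
Log2 fold change between DP and DR (horizontal axis) of every gene tested in 10 groups of the pathway, 1 point per gene, filled where the adjusted p was under 0.05, with the median of each group as a red line. Peroxisomal genes lie mostly below 0 (8 of 10 fell), and the 10 desaturases and elongases spread to both sides (5 rose, 3 fell).

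DR replicate 6 was low in several of these genes, with *Insig1* at 69.2 CPM, *Acss2* at 75.1 CPM and *Scd4* at 0 counts, which allows up to 3, the lowest DR values for each of these genes, whereas its *Srebf1* level of 269 CPM was close to the DR mean. The 3 members that fell came to -0.42 ± 0.25 for *Fads2*, -0.10 ± 0.08 for *Fads3* and -0.02 ± 0.09 for *Elovl5* with the macrophage markers as a covariate. In that fit 0 of the 10 members and 1 of all 17482 genes passed the adjusted threshold by edgeR. The 2 members *Scd2* and *Elovl1*, and 1890 genes in all, had an unadjusted p under 0.05. With the adipocyte markers as a covariate these counts were 0 members and 0 genes adjusted, and 0 members and 1087 genes unadjusted. Neither marker sum overlapped between the groups, so the group and the marker levels cannot be told apart in these fits.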

How the data were processed

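The 15 DP and 15 DR gWAT libraries were grouped by the disease state in the labels. The deposited table gives each gene an estimated count, made by the authors in StringTie 2.1.3b (GRCm38.p6), as the submitters' processing notes say. All of its values are whole numbers. RNA was total RNA from a miRNeasy kit. The aligner, annotation and strand setting were not given in the sources used here. Gene positions and lengths were read from GENCODE M21, which holds 55141 of the 55401 genes. No batch or date was labelled. Among 435 library pairs none agreed within sampling noise (chi-square per degree of freedom at least 7.49). Reads were not counted as unique molecules.

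DP and DR were set against each other in edgeR 4.0.16 under R 4.3.3 (TMM, filterByExpr with a minimum count of 10 and total of 15, quasi-likelihood F test, group as the only term). SE is the log2 fold change divided by the square root of F. Log2 CPM used a prior count of 2, and ratios of counts a pseudocount of 0.5. Ratios and relations used two-sided permutation tests with 100000 resamples. Other settings tried were the DESeq2 Wald test, as in the study but here in version 1.42.0, limma-voom 3.58.1 with quality weights, other scaling factors and filters, covariates, 7 surrogate variables (sva 3.50.0) and subsets of libraries. Those without DR replicates 6 and 7, and the liver list, were added after the data were seen. The gene test was also run on simulated data with far fewer changed genes than were called here, so it was not tested at this share of calls.

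The 10 members and 20 other gene lists were chosen with earlier results of these data known. Besides the members, up to 3 genes with the smallest p of a list, a fixed set of regulators and relatives, and the 3 genes most like *Scd1*, *Scd2*, *Fads2* and *Elovl6* were named. *Degs1*, *Hsd17b12*, *Cyb5r2*, *Srebf2*, *Mbtps2*, *Thrsp*, *Acsl1*, *Acsl5*, *Mboat2*, *Pla2g6*, *Cd163*, *Timd4*, *Awat1* and *Dgat2l6* were named after their values were seen, to complete small counts, and some genes of the lists are not reported here.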

Additional observations from a re-analysis of the deposited data

How the results depend on the processing

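No paired analysis was possible because replicate numbers were given in deposition order and pair no animals. Of the 10 genes, 5 were higher and 3 lower in DP, and these counts were within 1.5 times of that under DESeq2, limma-voom, upper quartile or relative log expression factors, no filter, a library number covariate, surrogate variables, the higher library numbers, and without the least correlated libraries, the library highest in B cell markers, or DR replicates 6 and 7. With either DR replicate left out alone, 5 were higher and 4 lower. Over all genes tested, 4622 rose and 4935 fell of 17544 without replicate 6, and 4691 and 4986 of 17534 without replicate 7. The counts changed to 3 higher with a mean FPKM over 1, which leaves *Elovl3* and *Elovl7* untested, to 3 higher and 1 lower in the lower library numbers (15 libraries), to 2 higher and 0 lower at a fold of at least 1.5, and to 0 and 0 with the macrophage or the adipocyte covariate. With a mean FPKM over 1, 4163 of all 13318 genes tested rose. In the lower library numbers 3697 rose and 3933 fell of 17557, against 4933 and 4771 of 17482 with every library. For a fold of at least 1.5 the share over all genes is not given here. *Fads2* also missed the threshold without a filter (adjusted p = 0.0597), with surrogate variables (0.0891) and in the lower library numbers (0.135), and *Scd1* passed it with upper quartile factors (0.0208) and surrogate variables (0.00895). The cause was not tested. The ratios kept their direction and side of the threshold under all 7 alternatives. Over the 17 other fits of the 10 genes, 133 of 168 values kept both, 23 lost the call, 5 gained it and 10 turned direction, 3 of which also lost the call.

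The direction turned for *Elovl6* with upper quartile factors (-0.022), without the library highest in B cell markers (-0.039), in the higher library numbers (-0.062), without DR replicate 7 (-0.024), without DR replicate 6 (-0.083) and without both (-0.12). With the macrophage covariate it turned for *Fads1* (-0.055), *Elovl7* (-0.018), *Degs2* (-0.094), *Hacd2* (0.0040), *Hacd3* (-0.030), *Cyb5a* (0.0024), *Srebf1* (0.020), *Nr1h3* (0.0034), *Fasn* (0.64), *Acsl4* (-0.0067), *Mbtps2* (-0.063), *Hsd17b12* (-0.015), *Thrsp* (1.02) and *Acsl5* (-0.0089). With the adipocyte covariate it turned for *Scd1* (0.066), *Fads1* (-0.036), *Scd4* (0.33), *Degs1* (-0.016), *Hacd3* (-0.075), *Srebf1* (0.16), *Mlxipl* (0.065), *Nr1h3* (0.097), *Fasn* (0.38), *Mcat* (0.015), *Lpcat2* (-0.042), *Agpat3* (0.038), *Thrsp* (0.82), *Acsl5* (-0.056) and *Pla2g6* (0.0082). *Scd4* turned with limma-voom (0.22) and *Fasn* with surrogate variables (0.013).

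Of the relations, *Fads1* and *Fads2* in DR turned to rho = -0.20, to r = -0.30 without the 2 libraries farthest from the median and to -0.33 without DR replicates 6 and 7. *Scd1* and *Scd2* turned to rho = 0.014 in DP and to r = -0.11 in DR under either omission, *Scd1* and *Elovl6* in DR to -0.15 under either, and *Scd1* and *Srebf1* in DR to rho = -0.079 and r = -0.00082. *Scd2* and the macrophage mean turned to r = 0.031 in DP without 2 libraries and to rho = -0.029 in DR. None of these relations passed the threshold in any setting. *Elovl3*, *Elovl4* and *Elovl7* are limited by their low counts.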
